A study of Mus musculus with 4 samples.

Results

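Nuclear receptors switch genes on and off through coregulators, proteins that they recruit once bound to DNA. Coactivators acetylate or methylate histones and draw in Mediator and RNA polymerase, whereas corepressors bring histone deacetylases or compete for the same receptor surface. The glucocorticoid receptor, which dexamethasone (Dex) activates, uses both kinds. The 9 coregulator genes described here were chosen by name as the gene table lists them, out of 22667 genes in that table. They were the steroid receptor coactivators Ncoa1, Ncoa2 and Ncoa3, the receptor-interacting coactivator Ncoa6, the acetyltransferases Crebbp and Ep300, the arginine methyltransferase Carm1, and the corepressors Ncor1 and Nrip1.

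The study depleted ARGLU1, a protein described both as a receptor coactivator and as a splicing factor, from N2a cells, a mouse neuroblastoma line, and sequenced polyadenylated RNA. Cells received a control siRNA (siControl) or an siRNA against Arglu1 (siArglu1) for 48 h and then 100 nM Dex or the ethanol vehicle (Veh) for 4 h. Each of the 4 combinations was sequenced as 1 library, made from RNA of 3 cultures pooled in equal parts, so no spread between cultures can be measured and no p-value is given for any pair of libraries. Intervals below are 95% limits from read counts and cover counting error only. Because the libraries are bulk RNA, less RNA per cell and fewer cells with the RNA cannot be told apart.

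Between 66074574 and 86541444 reads per library lay on genes. Arglu1 itself stood at 26.4% of control in vehicle (25.2 to 27.5%) and 22.5% in Dex (21.7 to 23.4%). The study reported a larger fall, by quantitative PCR of the mRNA and by Western blot of the protein. The glucocorticoid receptor gene Nr3c1 stood at 80.3% (76 to 84.8%) and 93% (88.4 to 97.8%). With the trend of the ratio on gene length removed, described below, the log2 ratio of Nr3c1 was 0.04 and 0.07. The study reported no effect of the knockdown on this gene by quantitative PCR. In every library 9 of 10 sympathetic neuronal markers reached a cRPKM of 1, a read density corrected for mappable length and depth, whereas none of the 16 glial, fibroblast, immune and endothelial markers did. The summed neuronal marker level was 1534 and 1579 cRPKM in the siControl libraries and was 1.31 times as high with knockdown in vehicle and 1.28 times in Dex. The single markers went both ways: Dbh was at 3.2 and 3.49 cRPKM in siControl and 12.5 and 14.2 in siArglu1 cells, and Th at 2.58 and 4.71 against 1.05 and 2.54. Their part in the members' ratios was not tested.

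All 9 genes passed the minimum of 75 reads over the 4 libraries, as did 12497 genes in all. In control cells Ncor1, the deacetylase-recruiting corepressor, had the most RNA per length of the group, and Nrip1, a hormone-dependent corepressor, the least. From siControl Veh to siControl Dex the Ncor1 level was 24.72 and 24.08 cRPKM, that of Carm1 22.82 and 22.09, that of Ncoa6 19.99 and 19.46, that of Ep300 17.01 and 16.24, and that of Ncoa3 16.13 and 15.12. Ncoa2 (7.92 and 7.31 cRPKM), Crebbp (7.63 and 6.75), Ncoa1 (5.20 and 5.02) and Nrip1 (3.23 and 2.98) made up the lower tier. The order of the 9 was the same in both siControl libraries. After knockdown Carm1 came first, at 22.93 cRPKM in vehicle and 28.05 in Dex, and Ncor1 took the fourth place, at 9.78 and 12.23. With 1 library a group there is no spread to set against the gaps between neighbours such as Ncoa2 and Crebbp.

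**Figure D1:**
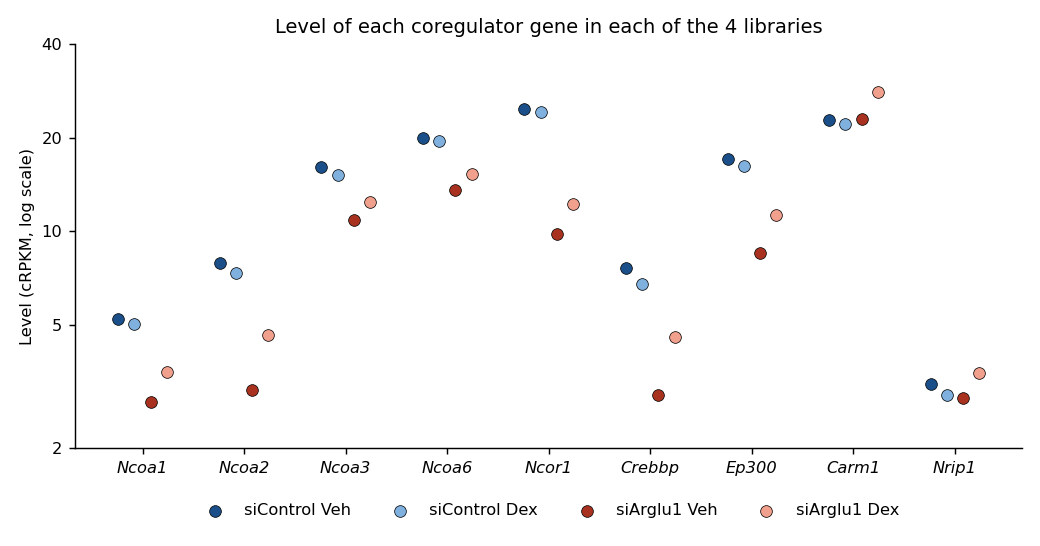
Level of each of the 9 genes (cRPKM, log scale) in each library, 1 point per library. For Ncoa1, Ncoa2, Ncoa3, Ncoa6, Ncor1, Crebbp and Ep300 both siArglu1 points lie below both siControl points, as for Ncor1 at 9.78 and 12.23 against 24.72 and 24.08.

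To ask which coregulator RNAs moved with ARGLU1 depletion, reads were scaled by TMM factors and compared as log2 ratios, siArglu1 over siControl, within vehicle and within Dex. A ratio of at least 0.81 in size was taken as a difference, which sets a size and tests nothing. In vehicle 5 of the 9 genes were lower by the rule and none was higher, where 8.77% of all 12497 genes compared were lower. The 5 were Ncoa2, Crebbp, Ncor1, Ep300 and Ncoa1. In Dex only Ncor1 was lower by the rule, where 5.93% of all genes were. The median log2 ratio of the 9 was -0.85 in vehicle and -0.52 in Dex, beside 0.00 over all genes in each.

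Long genes were lower after knockdown in these libraries as a class, and the coregulator genes are long. The length that reads and cRPKM imply was 6 kb or more for 7 of the 9 genes and for 9.75% of the genes compared, whose median was 2.71 kb. Of the 1219 genes of 6 kb and over, 21.1% were lower by the rule in vehicle and 9.19% in Dex, and their median log2 ratios were -0.44 and -0.22. Spearman's rho of the ratio on length over 12484 genes was -0.398 in vehicle and -0.229 in Dex, given as a description since genes share libraries and base composition. Each member was therefore also read against a smooth trend of the ratio on length. With the trend removed, 2 of 9 members, Ncoa2 and Crebbp, stayed past 0.81 in vehicle and none in Dex, where 7.1% and 5.61% of all genes were lower by that measure. The implied length of these genes is well below that of their longest coding transcript in the GENCODE M21 annotation, 4.85 against 8.17 kb for Ncoa2 and 7.46 against 10.8 kb for Crebbp. With a trend on that annotated length, added after the values had been seen, the members past 0.81 in vehicle were Ncoa2 (-0.90) and Ncor1 (-0.85) with Crebbp at -0.79, and there was none in Dex, where 6.6% and 5.47% of 12174 genes were lower. Which members stand past the rule beyond length thus depends on the length used. Whether length itself, or the state of the RNA, had a part in the members' ratios was not tested.

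**Figure D2:**
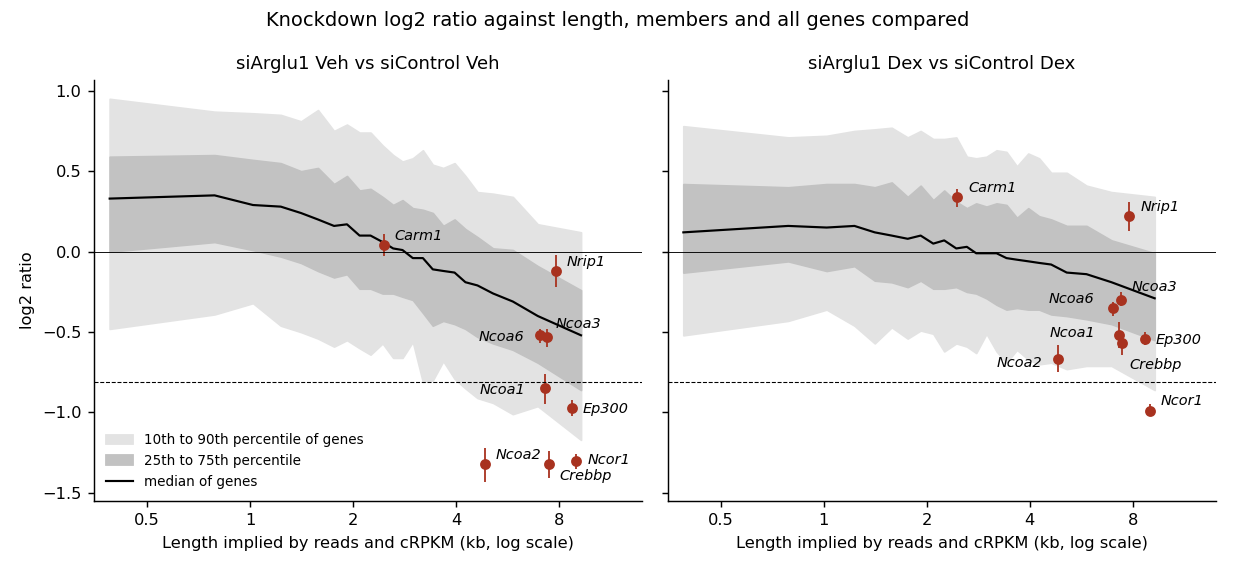
Log2 ratio of siArglu1 over siControl against the length implied by reads and cRPKM (kb, log scale), in vehicle (left) and Dex (right). Grey bands and the line give percentiles and the median of all genes compared in 24 bins of length, red points the 9 members with 95% counting intervals, and the dashed line -0.81. Ncoa2, Crebbp and Ncor1 lie below the 10th percentile of genes of their length in vehicle, and Nrip1 lies near the 75th.

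The 3 steroid receptor coactivators, paralogues that bind the ligand-filled receptor through short leucine-rich motifs and carry acetyltransferases and methyltransferases to it, were not lower to a like degree. Ncoa2 had 2537 and 2523 reads in the siControl cells (vehicle, then Dex), and 997 and 1943 in the siArglu1 cells. It was lowest in siArglu1 Veh, at 39.9% of its control (37 to 42.9%), a log2 ratio of -1.32, and in Dex the log2 ratio was -0.67 (-0.75 to -0.58). The trend was -0.24 at its implied length of 4.85 kb and -0.42 at its annotated 8.17 kb, which leaves -1.09 or -0.90. Ncoa1 had 2501, 2601, 1365 and 2216 reads in the same order, and its log2 ratio was -0.85 (-0.95 to -0.76) in vehicle and -0.52 (-0.60 to -0.44) in Dex. With the trend removed these were -0.44 and -0.32. Ncoa3, the family member amplified in breast cancer, had 7849, 7934, 5337 and 7886 reads. Its log2 ratios of -0.53 and -0.30 came to -0.12 and -0.09 once the trend was removed, so little distance from other genes of its length remained. Ncoa6, a subunit of a histone H3 lysine methyltransferase complex, was similar, with 9269, 9725, 6356 and 9300 reads and log2 ratios of -0.52 in vehicle and -0.35 in Dex, or -0.13 and -0.16 with the trend removed.

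Crebbp and Ep300, the paralogous acetyltransferases that the steroid receptor coactivators bring to chromatin, were lower in both treatments and more so in vehicle. Crebbp had 3760, 3582, 1480 and 2944 reads, and its log2 ratio was -1.32 (-1.41 to -1.24) in vehicle and -0.57 (-0.64 to -0.50) in Dex. Ep300 had 9781, 10063, 4915 and 8463 reads, with log2 ratios of -0.97 (-1.02 to -0.92) and -0.54 (-0.58 to -0.50). The pair differed in its distance to the trend in vehicle, -0.90 for Crebbp and -0.49 for Ep300, and hardly in Dex, -0.36 and -0.30.

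Carm1, which methylates histone H3 and Crebbp, and Nrip1, which binds agonist-bound receptors and represses, were the exceptions. Carm1 had 3710, 3872, 3757 and 5974 reads, and its log2 ratio was 0.04 (-0.03 to 0.11) in vehicle and 0.34 (0.28 to 0.39) in Dex. Nrip1 had 1671, 1657, 1514 and 2361 reads, which gave -0.12 (-0.22 to -0.02) in vehicle and 0.22 (0.13 to 0.31) in Dex on the log2 scale. Carm1 is the shortest member, at 2.46 kb. Nrip1, at 7.82 kb, is as long as the genes that were lower, and with the trend removed its log2 ratio was 0.32 in vehicle and 0.44 in Dex, a change of sign in vehicle.

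Ncor1, which docks the histone deacetylase HDAC3 at unliganded and antagonist-bound receptors, was the only member lower by the rule in both treatments. Its reads were 14683, 15414, 5855 and 9511, or 40.5% of control in vehicle (39.3 to 41.7%) and 50.5% in Dex (49.2 to 51.8%). The log2 ratios were -1.30 and -0.99, and -0.81 and -0.74 with the trend removed, the former just short of the rule before rounding. Over all genes 5.07% were lower in both pairs, and 8.94% of those of 6 kb and over.

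The transcript models give one feature in which Nrip1 stood apart. In the longest coding transcript of the GENCODE M21 annotation (GRCm38), Nrip1 has 4 exons, of which 1 is coding, and its last exon holds 96.8% of the RNA. Ncor1 has 46 exons, Crebbp and Ep300 31 each, Ncoa1 and Ncoa3 23 each, Ncoa2 22, Ncoa6 16 and Carm1 15. Among all compared genes of 6 kb and over, the median log2 ratio in vehicle was -0.27 for the 251 genes with 10 or fewer exons and -0.57 for the 365 with over 30, and 17.5% and 27.9% of them were lower by the rule. Between these, the 325 genes with 11 to 20 exons had a median of -0.42 and 14.8% lower, and the 276 with 21 to 30 a median of -0.48 and 22.5% lower, so the share lower did not rise at every step. These bands were chosen after the values of Nrip1 had been seen. Length was not held equal across the bands, so these medians do not separate exon number from length. The part of either in the ratio of Nrip1 was not tested.

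To see the Dex response itself, Dex libraries were set against vehicle libraries within each siRNA, with a rule of 1 on the log2 scale. None of the 9 genes passed it in either, where 0.464% of all genes did in siControl and 0.392% in siArglu1. In siControl cells all 9 log2 ratios lay slightly below 0, from -0.03 for Ncoa6 and Ncor1 to -0.17 (-0.24 to -0.10) for Crebbp. The counting intervals of Ncoa1, Ncoa6, Ncor1 and Carm1 reached 0 there. In siArglu1 cells all 9 lay above 0, from 0.14 (0.09 to 0.18) for Ncoa6 to 0.55 (0.44 to 0.66) for Ncoa2 and 0.58 (0.49 to 0.67) for Crebbp. Genes of 6 kb and over had the same signs for the most part: 67.8% of them lay below 0 in siControl cells and 90.6% above 0 in siArglu1 cells, beside 51.7% and 49.7% of all genes. Spearman's rho of the Dex ratio on length was -0.163 in siControl and 0.543 in siArglu1 cells. Each comparison has its siArglu1 or siControl libraries in common with the knockdown comparisons. The difference in the knockdown log2 ratio, Dex minus vehicle, is the same number as the difference of the Dex ratios. It was largest for Crebbp, 0.75 (0.64 to 0.86), and Ncoa2, 0.66 (0.52 to 0.79), and smallest for Ncoa6, 0.17 (0.11 to 0.23). The trend on length also differed between treatments. With each trend on implied length removed, the difference was 0.54 for Crebbp and for Ncoa2, 0.31 for Carm1 and 0.19 for Ep300. It was 0.12 for Ncoa1 and Nrip1, 0.07 for Ncor1, 0.03 for Ncoa3 and -0.03 for Ncoa6. With the trend on annotated length removed, the knockdown log2 ratios in vehicle and Dex were -0.90 and -0.46 for Ncoa2 and -0.79 and -0.31 for Crebbp. No test of these differences was possible with 1 library a group.

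**Figure D3:**
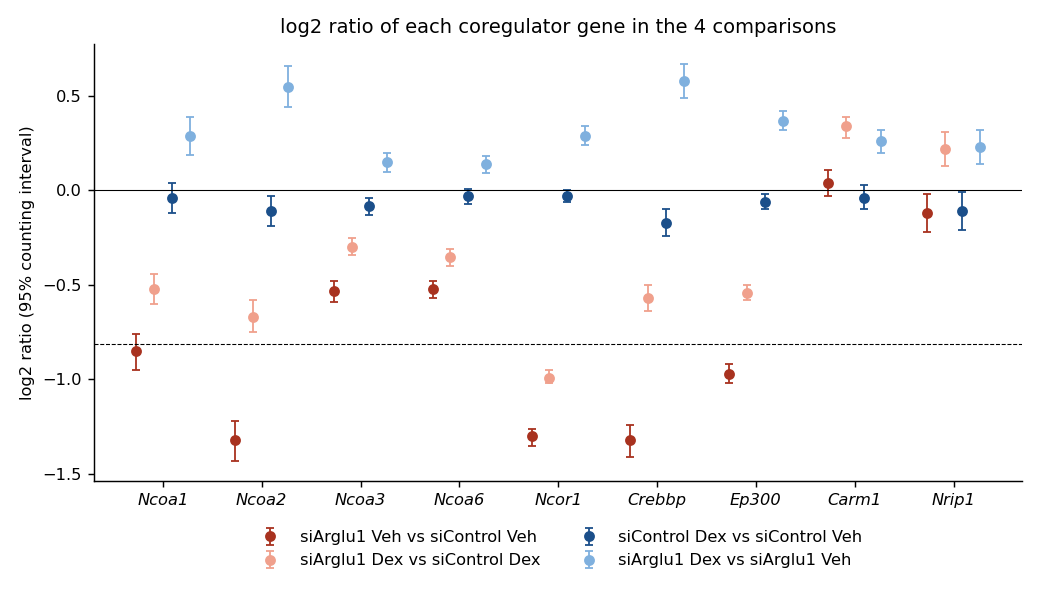
Log2 ratio of each member in the 4 comparisons, with 95% counting intervals, and -0.81 as a dashed line. The pale blue points, Dex over vehicle in siArglu1 cells, all lie above 0 (0.14 to 0.58), and the dark blue points, the same in siControl cells, lie between -0.17 and -0.03.

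Junction reads allowed the members to be read along part of their length. For alternative 3′ and 5′ splice-site events the score field of the deposited files holds a number that tracked the coverage class without exception: 10 to 19 for VLOW, 20 to 39 for LOW, 40 to 99 for OK and 100 or more for SOK. That number was taken as the reads over the event's junctions. Events with at least 20 such reads in both siControl libraries were ordered from the 5′ end of the gene. This gave 2 to 10 events in 8 members and none in Nrip1. The first and last events kept lay 195 nt of genome apart in Ncoa6, 1615 in Carm1, 9615 in Ncoa1, 15740 in Ep300 and 67030 in Ncor1. They are called the ends below, but need not lie near the ends of the transcript. Such a minimum on the siControl reads alone favours events that read high in those libraries. With 80 reads summed over the 4 libraries in its place, the members' median difference between the ends was 1.03 in vehicle and 0.42 in Dex, and that of 610 genes of 6 kb and over 0.65 and 0.36. This comparison was chosen after the data had been seen.

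In Ncor1, the junction reads of control and depleted cells in vehicle were 101 and 20 at the first event, 191 and 46 at the fourth, 263 and 94 at the seventh and 256 and 128 at the tenth. The depth-scaled log2 ratio thus went from -2.29 (-3.09 to -1.61) at the 5′-most event to -0.98 (-1.30 to -0.67) at the 3′-most. It did not rise at every step: the second event, at -2.51, lay below the first, and the ninth, at -0.91, above the tenth. In Dex the ends were -1.50 (-2.09 to -0.96) and -0.70 (-0.97 to -0.43). The ends of Crebbp were at -2.49 (-3.85 to -1.47) and -1.20 (-1.95 to -0.52) in vehicle, with the third event at -1.05 (-2.11 to -0.12) and the fourth at -2.52 (-3.79 to -1.56), and those of Ep300 went from -1.80 (-2.45 to -1.22) to -1.18 (-1.58 to -0.80). The second event of Ep300 was lower than either end, with 60 against 7 reads in vehicle, so the course was not even along either gene. In Ncoa3, whose reads as a whole were near the trend, the 5′-most event held 103 against 31 reads, or -1.69 (-2.34 to -1.12) on the log2 scale, and the 3′-most 107 against 120, or 0.19 (-0.20 to 0.58).

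The ratio was higher at the 3′-most than at the 5′-most event in 7 of 8 members in vehicle. Ncoa2 was the exception, at -1.02 (-1.82 to -0.29) and then -2.13 (-3.01 to -1.39), 2 intervals that overlap. The intervals of the ends in vehicle also overlap for Ncoa1, Crebbp, Ep300 and Ncoa6. They do not for Ncor1, Ncoa3 and Carm1. In Dex the ratio was also higher at the 3′ side in 7 of 8. There Ncoa2 was at -1.42 and then -0.05, and Ncoa1 was the exception at -0.66 and -0.70. For Ncoa6 the events are neighbours and share reads, at -1.42 and -1.39 in vehicle. Genes at large did likewise: of 5324 genes with 2 or more such events, 78.9% had the higher ratio at the 3′ side in vehicle and 71.5% in Dex, with median differences of 0.31 and 0.16 on the log2 scale. Among the 609 of 6 kb and over the median difference was 0.69 in vehicle, beside 1.03 for the 8 members. The median ratio at the 5′ side was -1.23 for those long genes and -1.75 for the members, and at the 3′ side -0.44 and -1.08. At the 5′-most event 7 of 8 members were past 0.81 in vehicle and 4 in Dex, beside 69.3% and 34.5% of the long genes and 30% and 15.7% of all 5324. At the 3′-most event 5 and 2 members were, beside 33.2% and 12.8% of the long genes and 17.1% and 10.1% of all. RNA integrity was not among the data, and its part in these ratios was not tested.

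**Figure D4:**
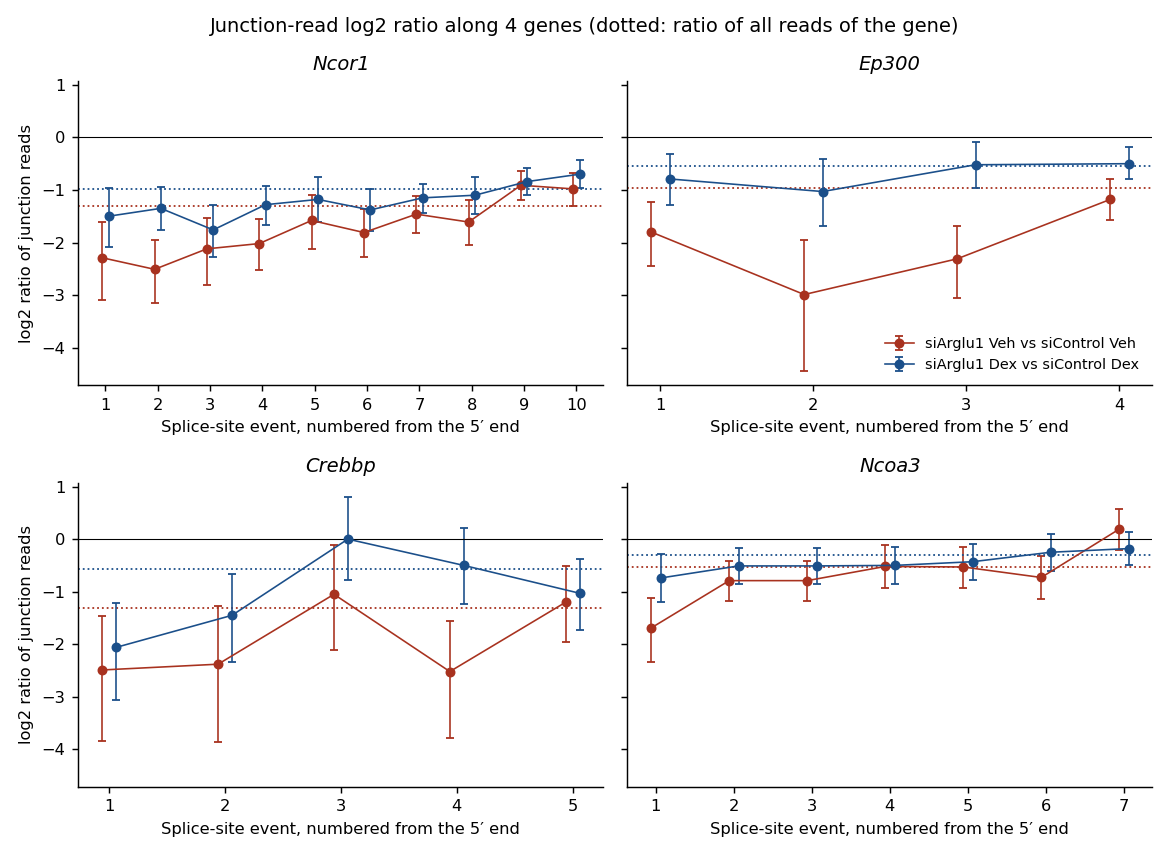
Depth-scaled log2 ratio of junction reads, siArglu1 over siControl, at each splice-site event of 4 members, numbered from the 5′ end, in vehicle (red) and Dex (blue) with 95% counting intervals. Dotted lines mark the ratio over all reads of the gene, -1.30 in vehicle for Ncor1. The Ncor1 events in vehicle lie between -2.51 and -0.91, with -2.29 at the first and -0.98 at the last.

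Splicing was read as PSI, the percent of junction reads that include an exon or use a site. The 9 genes had 122 events in the files, of which 108 had a PSI in all 4 libraries and, in 3 or more, a coverage class no worse than LOW. Only 18 of the 108 had a PSI between 5 and 95 in every library, and 9 of those were in Ncor1. None of the 3 Nrip1 events met the coverage rule. Of the 108 member events, 2 differed by at least 15 PSI for knockdown in vehicle, beside 1.96% of all 57183 events compared. The rule was met by 1 for knockdown in Dex (1.52% of all events), 1 for Dex in siControl (0.719%) and 2 for Dex in siArglu1 (0.948%). All were in 2 cassette exons of Ncor1. The member counts for knockdown did not exceed the shares over all events.

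The exons on which these results turn are shown as in the GENCODE M21 transcripts, with the exon in capitals and bases of the neighbouring exons in lower case. They were found by exon and flanking intron lengths, which for the Ncoa1 exon matched another of the ends listed for that event, 55 nt in place of 49, and of the 494-nt exon the first 60 bases are given.
Ncor1 27-nt exon: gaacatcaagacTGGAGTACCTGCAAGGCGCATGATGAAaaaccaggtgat
Ncor1 494-nt exon: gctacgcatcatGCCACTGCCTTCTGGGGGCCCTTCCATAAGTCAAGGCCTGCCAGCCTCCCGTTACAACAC
Carm1 69-nt exon: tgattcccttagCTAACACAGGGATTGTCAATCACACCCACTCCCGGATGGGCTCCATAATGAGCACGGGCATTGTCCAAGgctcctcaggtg
Ncoa1 55-nt exon: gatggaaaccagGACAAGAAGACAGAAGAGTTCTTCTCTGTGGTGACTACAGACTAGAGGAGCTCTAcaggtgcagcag

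The Ncor1 494-nt exon (mm9, chr11:62147165-62147658, reverse strand) is exon 37 of 46 in the longest coding transcript that matched, is coding throughout and is not a multiple of 3 long. It lies toward the 3′ end of the coding sequence, and alternative splicing of the receptor-binding end of NCoR1 is known to make variants with different receptor preference. Its PSI was 79.1 and 54.8 in siControl cells (vehicle, then Dex) and 100 and 81.8 in siArglu1 cells, with the best coverage class, SOK, in all 4. Inclusion was thus 20.9 and 27 PSI higher with knockdown in vehicle and Dex, and Dex moved it by -24.3 PSI in siControl and -18.2 PSI in siArglu1 cells. The siControl Veh and siArglu1 Dex values lie close together. The read number behind a cassette exon's class was not used here, so no interval is given.

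The Ncor1 27-nt exon (mm9, chr11:62216938-62216964) is a short cassette exon near the 5′ end, exon 8 of 15 in the single transcript that matched, and keeps the reading frame. Its PSI was 54, 52.8, 75.1 and 48 in the same order, and the 1 library that stood apart, siArglu1 Veh, had a score of VLOW. Without that library no difference of 15 PSI is left. The exon lies 5′ of the first counted splice-site event of Ncor1, the event with the fewest junction reads in siArglu1 Veh, 20. Junction reads at the exon itself were not counted, and the part of coverage in its PSI was not tested. Just short of the rule were a 99-nt exon of Ncor1, at 77.8, 77.1, 92.6 and 78.9 PSI, and a 174-nt exon, at 50.3, 51, 38.2 and 49 PSI, again with siArglu1 Veh apart.

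Among the other members, the Carm1 69-nt exon (mm9, chr9:21392295-21392363, forward strand) came nearest to the rule under full coverage. It is exon 15 of 16 in its longest matching transcript, keeps the reading frame, and its skipping gives the known shorter CARM1 protein that lacks the automethylated segment. Its PSI was 90.8, 90.7, 83.9 and 77.8, all scored SOK, so both siArglu1 values lay below both siControl values, with differences of -6.88 PSI in vehicle and -12.8 in Dex. A cassette exon of Ncoa1 (mm9, chr12:4249836-4249884) is listed at 49 nt and matched exon 22 of 23 of the longest transcript in a form 55 nt long, with 42 coding bases and then the stop codon. Inclusion therefore ends the protein early and skipping gives the longer end, as in the known SRC-1 isoforms. Its PSI was 63.3, 58.3, 50.9 and 53.1, a difference of -12.4 in vehicle and -5.17 in Dex. The events of Ncoa2, Ncoa3 and Ncoa6 that met the coverage rule differed by at most 7.12 PSI in any comparison. Those of Crebbp reached 10.8 PSI, for knockdown in Dex (89.2 against 100, scored OK and LOW). Those of Ep300 reached 13.3 PSI, for knockdown in vehicle, in an event scored N, the lowest class, in siArglu1 Veh.

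**Figure D5:**
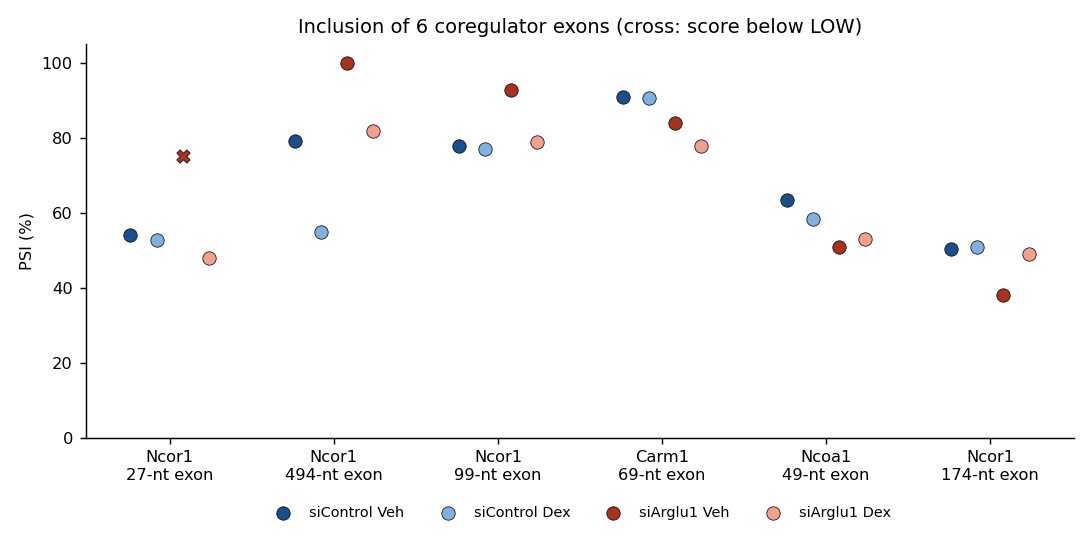
PSI of the 6 member cassette exons that met the coverage rule and differed by at least 12 PSI in any comparison, in the 4 libraries. Crosses mark a coverage score below LOW. The Ncor1 494-nt exon spans 54.8 to 100, and the Carm1 exon is lower in both siArglu1 libraries (83.9 and 77.8) than in both siControl libraries (90.8 and 90.7).

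Other coregulators put the 9 genes in context. Of a wider list of 37, all were matched and 34 had enough reads. In vehicle 5 of the 34 were lower by the rule and none higher, and in Dex 3 were lower and none higher, beside the 8.77% and 5.93% lower over all genes. The median log2 ratios were -0.33 and -0.22. The 3 lower in both were Ncoa7, the estrogen receptor-associated member of the NCOA genes (2111, 2250, 485 and 785 reads, log2 ratios of -2.10 and -1.81), the acetyltransferase Kat2b (6526, 6833, 2099 and 2965 reads, -1.61 and -1.49) and the proline-rich coactivator Pnrc1 (1261, 1369, 690 and 887 reads, -0.85 and -0.91). All 3 are under 6 kb, and each stayed past 0.81 in both treatments with the trend removed. The corepressor Lcor (-1.38) and the ASCOM methyltransferase Kmt2d (-0.97) were lower in vehicle only, at -0.60 and -0.36 in Dex. Hdac3, the deacetylase that NCoR1 docks, was at 0.35 and 0.18. The Mediator subunit Med1 was at -0.14 and -0.03.

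The genes nearest to the members' median profile over the 4 libraries, by Euclidean distance of centred log2 CPM, were Tecpr1 (distance 0.0138), Btbd19 (0.0162), Arid1a (0.0204), Sptbn1 (0.0233) and Bdp1 (0.0273). Among the members Ncoa1 (0.0157) and Ep300 (0.0923) lay closest to that profile and Carm1 (0.867) and Nrip1 (0.732) farthest. The profile was 0.36, 0.32, -0.49 and -0.18 from siControl Veh to siArglu1 Dex on the centred log2 scale.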

How the data were processed

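Per the labels and the study's methods, 4 libraries of polyadenylated RNA were sequenced, and the authors counted reads and measured splicing with vast-tools. The submitters' processing notes name Bowtie and the mm9 build, with no version. The deposited gene table gives counts and cRPKM (RPKM corrected for mappable positions, as the authors computed it), and 3 tables give PSI in percent with a text score of coverage per library. Its 2 unnamed columns hold the authors' ratios of Dex over vehicle cRPKM and were not used. There were 0 per-sample columns without a sample.

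Genes with at least 75 reads over the 4 libraries were compared on log2 CPM scaled by TMM (edgeR 4.0.16, R 4.3.3, prior count 1). Intervals are exact conditional limits on 2 counts, or, for a difference of ratios, a normal approximation on log counts. Length is reads divided by cRPKM and by reads on genes, and agreed over the 4 libraries within a CV of 0.108% for each member. The trend on length is a lowess (statsmodels, span 0.3, 3 iterations). Sets of sites of one splice-site event count as 1 event. An additive quasi-likelihood fit of knockdown and Dex (edgeR, 1 residual degree of freedom, Benjamini-Hochberg adjustment) was an alternative, as were other size factors, deposited cRPKM with a pseudocount of 0.1, a prior count of 5, thresholds of 1.5 and 25 PSI, no minimum on reads and other coverage rules. The rule on log2 ratios, the additive fit, the trend on implied length and the PSI rule were tested on simulated data. Changes planted for the rules and the additive fit were well past the thresholds, and the spread was assumed. Smaller changes and the real spread between cultures were not covered. The PSI rule was tested on splice-site events only, not on cassette exons. The intervals, junction ratios, exon matching, trend on annotated length and profile distances had no such test. Depth limits precision: the fewest reads behind a member in a library were 997.

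The members, the wider list, the markers and the rules were chosen with earlier results of these data known. Named were all members, wider-list genes past 0.81 in the same direction in both pairs together with Ncoa7 and Med1 (a further gene of the rule is not reported here), the 5 genes of mean cRPKM of at least 1 nearest to the members' profile, Arglu1, and member events past 15 PSI. Lcor, Kmt2d, Hdac3, Nr3c1 and exons short of 15 PSI were named after their values were seen. Exon sequences are from GENCODE M21 transcripts (GRCm38). They were matched to 65 of 81 member cassette events by exon and both intron lengths, and no coordinates were converted.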

Additional observations from a re-analysis of the deposited data

Results flagged for a closer look

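The Dex log2 ratio of 5 members lay below 0 in siControl cells and above 0 in siArglu1 cells, with both counting intervals clear of 0. The difference was 0.75 for Crebbp, 0.66 for Ncoa2, 0.43 for Ep300, 0.34 for Nrip1 and 0.24 for Ncoa3. Nrip1 also had knockdown ratios of opposite sign, -0.12 in vehicle and 0.22 in Dex, which is the same difference of 0.34. Over all genes compared 5.36% had the same opposite signs with both intervals clear of 0, and 23.4% of the 1219 genes of 6 kb and over. With the trend on length removed the difference was 0.03 for Ncoa3, and the knockdown ratios of Nrip1 were 0.32 and 0.44, both above 0. These differences were not tested, since each group is 1 library.

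The Ncor1 27-nt exon was 21 PSI higher with knockdown in vehicle and 4.78 PSI lower in Dex, a difference of -25.8 PSI between the treatments that was not tested and that rests on the siArglu1 Veh library, scored VLOW for this exon.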

How the results depend on the processing

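Replicates could not be paired because each group is 1 library with no replicate number, and leaving out a replicate was not possible for the same reason. All 36 member log2 ratios (9 genes, 4 comparisons) stayed within their counting intervals with RLE size factors, with deposited cRPKM and with a prior count of 5. With the length trend removed 24 of the 36 moved outside and 30 kept their sign, and 2 members (vehicle) and 0 (Dex) were past 0.81 in place of 5 and 1. A trend on annotated length, added after seeing the data, also left 2 and 0, Ncor1 taking the place of Crebbp. A threshold of 1.5 left 0 members in each, and 2 and 1 genes of the wider list. The additive edgeR fit called 8 members for knockdown (7 lower and Carm1 higher, at a model log2 ratio of 0.19 and an adjusted p of 0.0484) and 26 genes of the wider list, where it called 30.9% of all genes lower and 30.8% higher. It sets the vehicle pair and the Dex pair in 1 model, and with 1 residual degree of freedom takes any departure from additivity as the spread. It called 0 members for Dex, with adjusted p of at least 0.73. By the 5′-most splice-site event 7 of 8 members were past 0.81 in vehicle and 4 in Dex, and by the 3′-most 5 and 2. These counts were the same whether events were kept on siControl reads or on reads summed over the 4 libraries. With the siControl minimum, 30 and 15.7% of all 5324 genes passed at the 5′-most event and 17.1 and 10.1% at the 3′-most. Of the 609 genes of 6 kb and over, 69.3 and 34.5%, and 33.2 and 12.8%, did. Both event measures were added after seeing the data. Member events past 15 PSI numbered 5, 5, 5 and 4 with no coverage minimum (knockdown in vehicle and Dex, Dex in siControl and siArglu1), where 6.85, 6.1, 5.3 and 5.73% of all events passed. They numbered 1 in each comparison with OK or better in all 4 libraries (1.22, 1, 0.23 and 0.237% of all events), and 0, 1, 0 and 1 at 25 PSI (0.381, 0.322, 0.0874 and 0.187%). The 494-nt exon of Ncor1 is the event left under the stricter coverage.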
